A study of Mus musculus with 24 samples.

Results

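The genes described here are the replication-dependent histone genes of the mouse, which encode the linker histone H1 and the core histones H2A, H2B, H3 and H4. They were chosen by name alone, as protein-coding genes of the GRCm38 annotation whose symbols begin with Hist1h, Hist2h, Hist3h or Hist4h. The rule found 67 genes of the 55471 in the annotation: 18 for H2A, 18 for H2B, 13 for H4, 12 for H3 and 6 for H1. Their RNA was followed in SLIM-seq, in which an antibody against N6-methyladenosine (m6A) captures RNA from small numbers of cells and the captured RNA (IP) is sequenced beside uncaptured RNA (input). The 18 SLIM-seq libraries were 3 IP and 3 input libraries from each of metaphase II oocytes (MII), late 1-cell embryos (L1C) and late 2-cell embryos (L2C). Oocytes came from superovulated B6D2F1 females of 8 weeks, and embryos from such females mated with B6D2F1 males. The other experiment had 6 libraries of late 2-cell embryos grown from zygotes of the same strain. In 3 of them the zygotes had received mRNA of the RNA-cutting nuclease Cas13d with crRNAs against Ythdc1 (KD), and in 3 Cas13d mRNA with no crRNA (NC), so both groups carried the nuclease. Ythdc1 encodes a nuclear reader protein of m6A.

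Replication-dependent histone genes lie in clusters, mostly lack introns, and are transcribed strongly while DNA is copied, when new chromatin needs histones. Their mRNAs end in a conserved stem-loop in place of a poly(A) tail. The stem-loop binding protein Slbp holds this structure, and the U7 small nuclear ribonucleoprotein guides the cut that forms the end of the mRNA. In oocytes and early embryos, which divide before the embryonic genome is fully active, histone mRNAs and proteins are partly stored from oogenesis. How such RNAs were captured matters here, and the sources differ: the labels give the molecule as polyA RNA, the library protocol in the labels names a stranded kit for total RNA, and the methods of the study describe priming with oligo-dT. Levels below are levels of the RNA that entered the libraries, and the share of stem-loop-ended mRNA among it was not tested.

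The Hist1 cluster on chromosome 13 held 54 of the genes (chr13:21715763-23934851), the Hist2 cluster on chromosome 3 held 10 (chr3:96219865-96270132), Hist3 on chromosome 11 held 2 (chr11:58948920-58956830), and Hist4h4 stood alone on chromosome 6 (chr6:136801553-136804415). A single exon made up 62 of them. A stem-loop was searched for as 6 bases beginning with GG, a loop of the letters TNTN and the reverse complement of the 6 bases, within 100 bases after the stop codon on the strand of the gene. It was present in 65 of the 67 histone genes (97.0%) and in 74 of all 21664 protein-coding genes with a stop codon (0.342%). Only Hist1h2an and Hist2h2be had no match in this window, and the distance from stop codon to loop ran from 22 to 59 bases with a median of 31. The stem GGCTCT was found in 52 genes, GGCCCT in 11 and GGTCCT in 2, and the last 2 stems occurred in H4 genes alone among the 65. The stem-loops of the genes whose levels carry the results are shown 5′ to 3′ with 5 bases on each side, and capitals mark the stem-loop.
Hist1h1a: ccaacGGCTCTTTTCAGAGCCaccaa
Hist1h1b: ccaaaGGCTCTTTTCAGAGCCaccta
Hist1h1e: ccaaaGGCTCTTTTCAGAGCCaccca
Hist1h2ap: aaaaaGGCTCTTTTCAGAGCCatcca
Hist1h2aa: aaaaaGGCTCTTTTCAGAGCCacctt
Hist1h2ba: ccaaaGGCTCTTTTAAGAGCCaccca
Hist1h2bk: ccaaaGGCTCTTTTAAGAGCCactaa
Hist2h3c2: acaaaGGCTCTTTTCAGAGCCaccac
Hist1h3g: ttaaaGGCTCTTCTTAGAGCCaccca
Hist1h4i: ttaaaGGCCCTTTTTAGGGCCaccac
Hist4h4: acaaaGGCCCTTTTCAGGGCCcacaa
These lie in GRCm38 at chr13:23764387.0-23764412.0 on the plus strand for Hist1h1a, chr13:21779832.0-21779857.0 on the minus strand for Hist1h1b, chr13:23621777.0-23621802.0 on the minus strand for Hist1h1e, chr13:21833024.0-21833049.0 on the minus strand for Hist1h2ap and chr13:23934886.0-23934911.0 on the plus strand for Hist1h2aa. The others are at chr13:23933725.0-23933750.0 (minus) for Hist1h2ba, chr13:22036295.0-22036320.0 (plus) for Hist1h2bk, chr3:96238480.0-96238505.0 (minus) for Hist2h3c2, chr13:23535884.0-23535909.0 (plus) for Hist1h3g, chr13:22040961.0-22040986.0 (minus) for Hist1h4i and chr6:136803993.0-136804018.0 (minus) for Hist4h4. A match of letters is a description of the gene and says nothing of whether a given library held the processed end.

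Promoters of 63 histone genes could be matched, as 250 bases before and 50 after the start in RefSeq (GRCm38.p6). The letters CCAAT, read on both strands, were in 54 of them (85.7%) against 37.4% of all 32851 promoters, and TATAAA was in 35 (55.6%) against 13.6%. The octamer ATTTGCAT, bound by POU factors such as the product of Pou2f1, was in 14 (22.2%) against 1.74%. The classes differed in these letters: CCAAT was in 6 of 6 H1, 18 of 18 H2A, 17 of 17 H2B and 10 of 10 H3 promoters but in 3 of 12 H4 promoters, and the octamer was in 7 H2A and 7 H2B promoters and in none of H1, H3 or H4. Many of the genes are arranged head to head: 13 pairs had starts 176 to 660 bases apart on opposite strands, and in most a gene for H2A faced one for H2B. The promoters below belong to Hist1h2aa, which faces Hist1h2ba and was among the genes highest before fertilization, to Hist1h2ap, which faces Hist1h2br and was highest at L2C, and to Hist1h4i, which rose most among H4 genes. Capitals mark the 3 motifs on either strand.
Hist1h2aa: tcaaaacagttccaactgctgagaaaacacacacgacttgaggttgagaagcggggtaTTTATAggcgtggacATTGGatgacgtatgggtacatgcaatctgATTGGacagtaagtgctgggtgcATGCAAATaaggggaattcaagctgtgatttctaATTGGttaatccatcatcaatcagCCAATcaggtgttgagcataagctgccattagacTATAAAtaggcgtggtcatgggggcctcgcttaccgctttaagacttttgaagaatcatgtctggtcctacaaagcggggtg
Hist1h2ap: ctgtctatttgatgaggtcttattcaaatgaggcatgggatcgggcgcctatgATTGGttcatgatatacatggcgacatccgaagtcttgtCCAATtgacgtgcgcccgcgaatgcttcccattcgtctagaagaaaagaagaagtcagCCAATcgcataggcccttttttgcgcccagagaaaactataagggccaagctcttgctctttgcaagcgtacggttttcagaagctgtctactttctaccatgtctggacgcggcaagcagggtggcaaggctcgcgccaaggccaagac
Hist1h4i: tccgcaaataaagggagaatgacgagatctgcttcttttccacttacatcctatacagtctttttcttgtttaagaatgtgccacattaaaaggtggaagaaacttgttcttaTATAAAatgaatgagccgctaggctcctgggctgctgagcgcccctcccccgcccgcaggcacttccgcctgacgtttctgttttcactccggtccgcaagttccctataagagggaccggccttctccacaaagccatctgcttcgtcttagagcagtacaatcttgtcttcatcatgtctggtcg
They are at chr13:23934187-23934486 on the plus strand, chr13:21833426-21833725 on the minus strand and chr13:22041313-22041612 on the minus strand.

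Near-identical copies limit what can be said of single genes. For 37 of the 67 genes more than 50% of the 31-base words of the sequence occur in another histone gene of the set, and the median share was 55.2%. This share was highest for H2A (74.9%), followed by H3 (61.0%), H2B (51.2%) and H4 (47.9%), and lowest for H1 (3.04%). Reads of such copies were divided by estimate in SLIM-seq, and reads with several matches were not counted in the KD experiment. Every H2A gene and 6 other genes, 24 in all, also overlap another annotated gene, so their reads may be shared with it. Levels within a class are therefore given first as sums.

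Total estimated counts ran from 11107421 to 39739950 per SLIM-seq library, and total counts from 8696476 to 14500548 in the 5 KD and NC libraries that span the annotation. The counts of KD replicate 3 end on chromosome 7 together with the merged KD table, so the 56 genes of Hist1 and Hist3 were compared in 2 KD and 3 NC libraries, and the 11 genes of Hist2 and Hist4 also in 3 against 3 in the merged table. As sums, the oocyte and 2-cell marker lists followed the stage labels, with the oocyte list at a mean summed level of 9712, 3850 and 419 TPM, the transcript abundance scaled to gene length and library total, and the 2-cell list at 215, 306 and 791 TPM, in the inputs of the 3 stages in that order. Single markers differed by the edgeR test used below. Of 8 oocyte genes 3 rose and 5 fell from MII to L1C, 1 rose and 7 fell from L1C to L2C, and 8 fell between MII and L2C. Of 8 2-cell genes 6 rose from MII to L1C and 7 from L1C to L2C, while 7 rose and 1 fell between MII and L2C. Cumulus cell markers summed to 10.3, 2.72 and 1.01 TPM and blood markers to 43.3, 7.54 and 103 TPM. Labels do not say whether replicates were separate collections, so p-values measure the spread between these libraries, which may be technical. Fewer cells and less RNA per cell cannot be told apart in such libraries, and every level is relative to the rest of the library.

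In input RNA the 5 classes followed different courses from oocyte to 2-cell embryo. Levels are given as CPM, counts scaled to the library total with TMM factors, summed over the genes of a class, without division by length. H3 RNA summed to 69.3, 110 and 130 CPM in MII, 27.1, 53.8 and 42.3 in L1C and 22.2, 23.7 and 29.6 in L2C inputs, with MII above both later stages, which overlapped. H1 RNA summed to 22.9, 36.3 and 44.9 CPM in MII, 15.2, 24.5 and 17.9 in L1C and 4.61, 3.16 and 6.59 in L2C. The L2C libraries of both classes lay below all MII libraries, while the MII and L1C libraries of H1 overlapped. H2B RNA had means of 33.5, 26.2 and 20.9 CPM over the 3 libraries of each stage. H4 RNA was lowest in L1C, with 15.7, 24.1 and 21.2 CPM in MII, 6.25, 12.8 and 9.33 in L1C and 19.7, 17.6 and 22.5 in L2C. The H4 level at L2C was thus inside the MII range, and L1C lay below both. H2A RNA had means of 44.8, 50.5 and 288 CPM, and this increase rested on Hist1h2ap and its near-identical copy Hist1h2ao. Without these copies the H2A means were 44.1, 46.5 and 18.2 CPM. Summed over all 67 genes, the means were 236, 146 and 359 CPM.

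**Figure D1:**
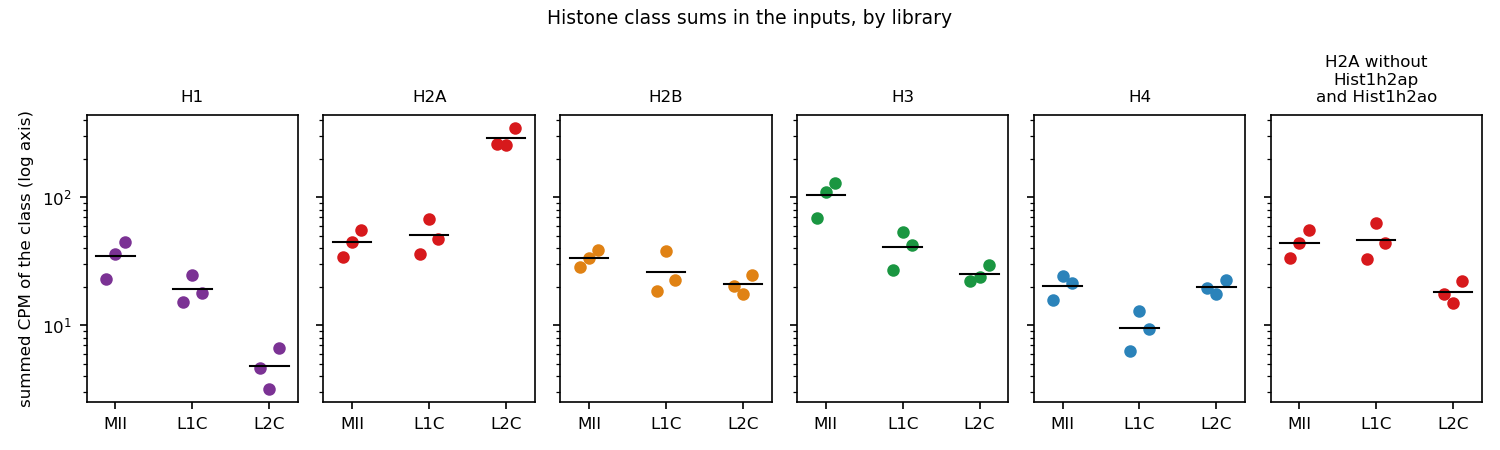
Summed level of each histone class in each library, in TMM-scaled CPM on a log axis, in the inputs of MII, L1C and L2C, with a last panel for H2A without Hist1h2ap and Hist1h2ao. Points are libraries (n = 3 per stage) and bars their means. H3 and H1 inputs are lower at L2C than at MII, H4 inputs are lowest at L1C, and H2A inputs reach a mean of 288 CPM at L2C.

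Divided by length, the histone RNA pool of the oocyte was mixed, and that of the 2-cell embryo was mostly that of 1 gene. As a share of the TPM of all 67 genes, where TPM is scaled by the length of the whole gene span, H3 made up 36.0% at MII, H2A 27.9%, H2B 18.9%, H1 11.4% and H4 5.79%. At L1C H2A was at 46.5%, H2B at 22.2%, H3 at 18.1%, H1 at 9.61% and H4 at 3.54%. By L2C H2A made up 86.9%, H3 5.10%, H2B 3.94%, H4 3.42% and H1 0.628%. The share assigned to Hist1h2ap went from 0.458% at MII to 4.43% at L1C and to 82.6% at L2C. In the late 2-cell NC embryos, where reads with several matches were not counted, Hist1h2ap was at 26.4, 6.35 and 48.1 CPM. Hist1h2ao was at 24.7, 23.3 and 26.4 CPM there, so the division between the copies is not settled. The number of the genes with counts above 0 in all 3 inputs was 33 in MII, 35 in L1C and 50 in L2C. The number at 0 in all 3 inputs was 17, 15 and 5. Depth differed as well, with totals of 24308395, 21011723 and 18557483 in MII and 27406658, 19962783 and 38195381 in L2C inputs. Detection over all genes was not counted, so these numbers are not a result about histone genes. The testis-specific linker histone gene Hist1h1t, Hist1h4b and Hist2h2bb were at 0 in all 18 SLIM-seq libraries.

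**Figure D2:**
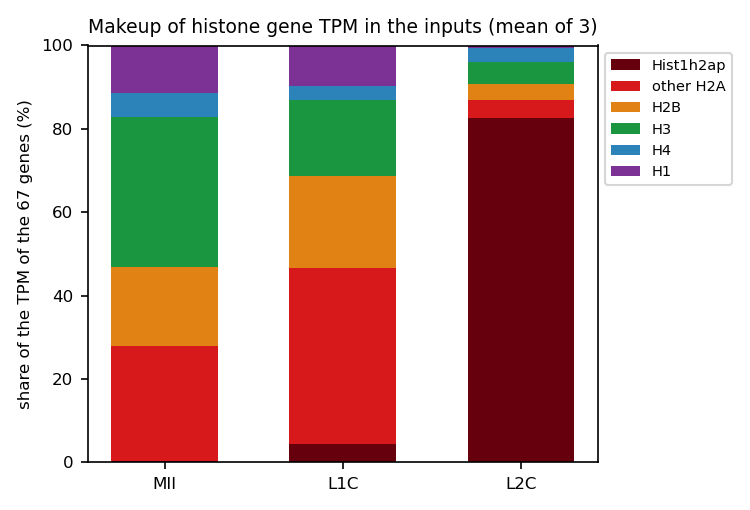
Share of each class in the summed TPM of the 67 genes, in percent, as stacked bars of the mean over 3 input libraries of each stage. Hist1h2ap is drawn apart from the other H2A genes. H3 is the largest class at MII (36.0%), and RNA assigned to Hist1h2ap, which shares most of its sequence with Hist1h2ao, fills 82.6% at L2C.

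Gene by gene, more histone genes were called lower than higher from oocyte to L1C, most were not called, and the step to L2C went both ways. Of the 67 genes, 35 passed the filter on low counts in the inputs: 4 for H1, 7 for H2A, 11 for H2B, 5 for H3 and 8 for H4. By the edgeR quasi-likelihood test with Benjamini-Hochberg (BH) adjustment, 4 of the 35 rose from MII to L1C where 31.9% of all 19903 genes tested did, and 11 fell where 24.3% did. Their median log2 change was -0.37, and that of all genes 0.16. Those that fell were 2 H1, 1 H2A, 3 H2B, 2 H3 and 3 H4 genes. Without MII input replicate 2 only 2 genes rose. From L1C to L2C 13 rose and 11 fell, with 44.1% and 38.8% of all genes as background and medians of 0.55 and 0.17. Between MII and L2C 13 genes rose and 15 fell, with 47.5% and 37.1% as background and medians of -0.34 and 0.40. Of the 13 genes that rose from L1C to L2C, 7 had under 10 counts in every L1C input, and 8 of the 13 that rose between MII and L2C had under 10 in every MII input. From MII to L1C, Hist1h1b and Hist1h1d rose with under 10 in every MII input. Hist1h1c and Hist1h2bg fell with under 10 in every L1C input. Such genes pass the filter through the libraries in which they are high, as Hist1h2bp and Hist1h4i did through L2C and Hist1h2bg through MII. The counts and medians over the 35 genes, and the calls on such genes, are therefore a description. With no filter on low counts 22 rose between MII and L2C, 18 from L1C to L2C, and 7 in place of 4 from MII to L1C.

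**Figure D3:**
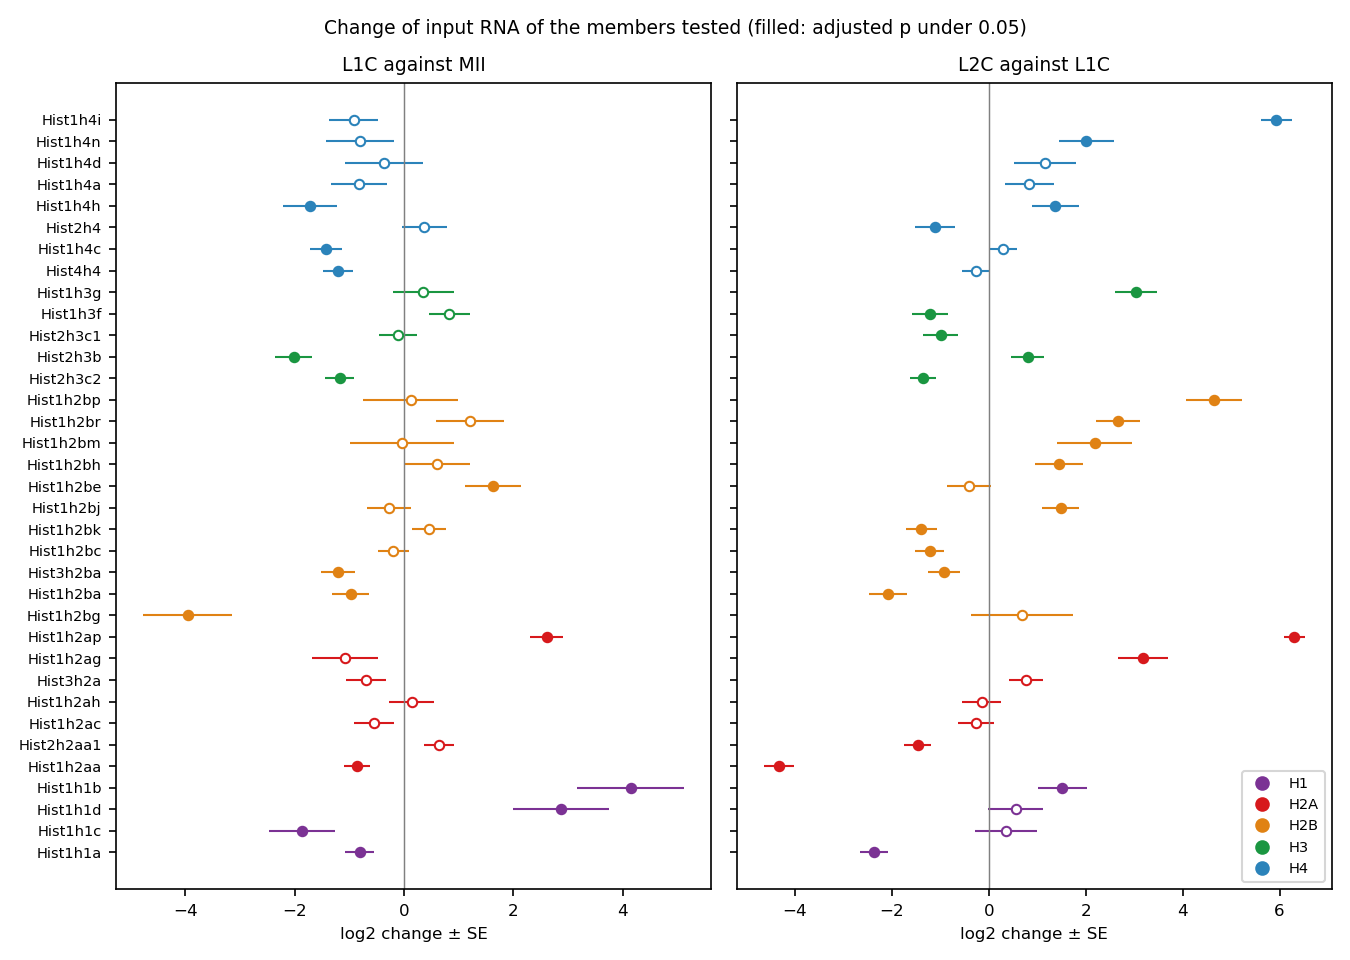
Log2 change in input RNA from MII to L1C and from L1C to L2C for each of the 35 histone genes that passed the filter, ordered by class, with bars of 1 standard error. Filled points have an adjusted p under 0.05. Hist1h2ap, Hist1h4i and Hist1h2bp lie far above 0 in the second step and Hist1h2aa far below.

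In input RNA, Hist1h1a and Hist1h1c were highest in the oocyte, and Hist1h1b and Hist1h1d were higher after it. Hist1h1b, Hist1h1d and Hist1h1e nonetheless had counts in every MII IP library, so their RNA was not absent from oocytes. Hist1h1a (chr13:23763666-23764406), whose stem-loop is shown first above, was the highest H1 gene per length at each stage, at mean TPM levels of 437, 225 and 30.2, while no other exceeded 10.6. Hist1h1a had 413, 592 and 641 counts in MII, 292, 434 and 281 in L1C and 78, 50 and 160 in L2C. Its change from L1C to L2C was log2 -2.37 ± 0.29 (SE; edgeR, BH-adjusted p = 2.7e-06), while from MII to L1C the scaled levels overlapped despite a call (log2 -0.81 ± 0.26, BH-adjusted p = 0.018). Hist1h1c also fell after the oocyte, from 17, 13 and 25 counts to 5, 9 and 2, and then had 13, 2 and 15. Hist1h1b went the other way. It had 0, 0 and 1 counts in MII, 7, 9 and 8 in L1C and 28, 12 and 67 in L2C, and the ratio of L2C to MII was 57.8 with a 95% counting interval of 10.2 to 2306. Hist1h1d had 3, 0 and 0 counts in MII, 9, 11 and 5 in L1C and 21, 6 and 27 in L2C, and was called higher at L1C than at MII. Hist1h1e was near 0 throughout, with 1, 0 and 3 counts in MII, 0, 2 and 0 in L1C and 1, 0 and 0 in L2C. Thus 1 gene carried the class in the oocyte. The first-step calls were lost without MII input replicate 2 or 3 or L1C input replicate 1 or 3 for Hist1h1a (log2 -0.58 to -0.78), without MII input replicate 3 or L1C input replicate 1 or 3 for Hist1h1c (-1.47 to -1.75), and without MII input replicate 2 for Hist1h1d (2.35). Intervals of this kind cover counting error only.

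Among H2A genes the largest changes were those of Hist1h2ap and Hist1h2aa, in opposite directions. Hist1h2ap (chr13:21833026-21833507, minus strand) had 9, 15 and 11 counts in MII, 66, 99 and 60 in L1C and 7404, 5354 and 13251 in L2C. In CPM its L2C inputs were at 242, 241 and 325. No library of 1 stage overlapped another stage, and the log2 changes were 2.61 ± 0.29 (edgeR, BH-adjusted p = 5.3e-06) and 6.31 ± 0.22 (BH-adjusted p = 6.3e-12). Since 93.4% of its 31-base words are also in Hist1h2ao, which had 4, 8 and 25 counts at L2C and 0 before, the 2 genes cannot be told apart by most reads. Hist1h2aa (chr13:23934462-23934851, plus strand), the testis-specific H2A that oocytes also store, had 208, 254 and 276 counts in MII, 123, 176 and 132 in L1C and 11, 7 and 12 in L2C. Its log2 changes were -0.86 ± 0.23 (BH-adjusted p = 0.0062) and -4.33 ± 0.31 (BH-adjusted p = 8.3e-09). Its partner Hist1h2ba, which encodes the testis-specific H2B and starts 306 bases away, fell in the same 2 steps, from 110, 115 and 105 counts to 46, 74 and 55 and then to 19, 24 and 12. The log2 changes of Hist1h2ba were -0.98 and -2.08, with BH-adjusted p of 0.024 and 0.00018 by edgeR. Its first call was lost without MII input replicate 2 or 3 or L1C input replicate 1 (log2 -0.76 to -0.94). Both genes of this pair were thus lower at each stage than at the one before, in all libraries.

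Other H2A genes changed less or later. Hist2h2aa1 (chr3:96245497-96246082) was the highest H2A gene per length at L1C, at a mean of 595 TPM against 323 for Hist1h2aa. Counts of Hist2h2aa1 were 312, 373 and 426 in MII and 424, 915 and 497 in L1C inputs. It had 314, 179 and 482 counts in L2C inputs and fell by 1.47 on the log2 scale in this step. All 31-base words of its neighbour Hist2h2aa2 are shared with it, and that gene was listed with 7, 0 and 0, then 62, 0 and 0, then 0, 7 and 0 counts. Hist1h2ag rose from 2, 3 and 5 counts at L1C to 50, 30 and 53 at L2C, a log2 change of 3.18. Hist1h2ah and Hist3h2a were not called at either step, with 15 to 53 and 29 to 146 counts per input. Hist2h2ac had 1, 1 and 0 counts at MII, 0 in all 3 L1C inputs and 9, 8 and 20 at L2C, at least 7.40-fold higher than a floor of 3 counts over the L1C group. Hist2h2ab had 2 counts in 1 MII input and 0 in the other inputs. Hist1h2ao, given above, was at least 7.40-fold higher over the same floor, Hist1h2af had 0 in every L1C input and 8, 3 and 7 at L2C (at least 3.6-fold), and Hist1h2an went from 4, 0 and 1 counts to 12, 14 and 36. In these genes, as in Hist1h2ap and Hist1h2ag, no L2C input overlapped an L1C input, but those too low for the filter were not tested.

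H2B genes were spread over all patterns. Per length Hist1h2ba was highest at MII (mean 254.6 TPM), Hist1h2bk at L1C (275 TPM) and Hist1h2bj at L2C (110 TPM). Hist1h2bk had 131, 134 and 134 counts in MII and 148, 301 and 133 in L1C inputs. It then had 91, 49 and 191 counts and fell by 1.40 on the log2 scale from L1C to L2C (edgeR, BH-adjusted p = 0.00096). Hist3h2ba fell at both steps, from 115, 144 and 153 counts to 48, 99 and 44 and to 45, 28 and 72, the second call being lost without L1C input replicate 2 (log2 -0.49) or L2C input replicate 2 (-0.84). Hist1h2bg fell from 25, 22 and 17 counts to 0, 4 and 0, a log2 change of -3.95, and had 4, 4 and 1 at L2C. This gene passed the filter through MII, so its change is a description. Hist1h2bp had the largest rise of the H2B genes that passed the filter, from 0, 5 and 3 counts at L1C to 108, 50 and 151 at L2C, a log2 change of 4.65. It passed through L2C, so its change is a description. Hist1h2bj had 38, 55 and 45 counts in MII, 19, 68 and 32 in L1C and 130, 98 and 267 in L2C, and rose by log2 1.49 in the last step. Hist2h2be, which has no stem-loop in the window searched, had 3, 0 and 0 counts in MII, 10, 4 and 4 in L1C and 16, 3 and 18 in L2C. In the class as a whole 5 of 11 tested genes rose from L1C to L2C and 4 fell, shares near the 44.1% and 38.8% of all genes.

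The H3 genes of the Hist2 cluster were the highest H3 genes per length in the oocyte, Hist2h3b at a mean of 802 TPM, Hist2h3c2 at 554 and Hist2h3c1 at 17.9. Hist2h3c2, with 811, 1178 and 1172 counts at MII, had 347, 659 and 474 at L1C and 224, 195 and 421 at L2C, and fell by 1.17 and then by 1.36 on the log2 scale. Hist2h3b (chr3:96268654-96269141) fell from 384, 566 and 656 counts to 92, 225 and 109, by 2.01 on the log2 scale (SE 0.34; edgeR, BH-adjusted p = 0.0002). It then had 298, 214 and 584 counts, called higher although the scaled levels of L1C and L2C overlapped. Hist2h3c1 had 86, 48 and 80 counts in MII, 76, 65 and 67 in L1C and 74, 36 and 31 in L2C, and was called lower in the last step only. The call of the rise in Hist2h3b was lost without L1C input replicate 1 or 3 or L2C input replicate 3 (log2 0.49 to 0.70), and that of Hist2h3c1 without L1C input replicate 3 (-0.93) or L2C input replicate 3 (-0.63). In the Hist1 cluster, Hist1h3g passed the filter through L2C, so its change is a description. It rose from 7, 4 and 4 counts at L1C to 43, 44 and 92 at L2C, a log2 change of 3.04. Hist1h3f fell by 1.21 on the log2 scale in that step, from 28, 59 and 38 counts to 25, 14 and 40.

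Among H4 genes Hist1h4i (chr13:22040636-22041362, minus strand) became the highest per length at L2C, at a mean of 111 TPM against 33.5 for Hist1h4h. At MII and L1C Hist1h4c had been highest, at 72.1 and 23.9 TPM. Hist1h4i had 6, 7 and 7 counts in MII, 6, 3 and 2 in L1C and 336, 200 and 456 in L2C, a log2 change of 5.93 in the last step. It passed the filter through L2C, so its change is a description. Hist1h4c fell from 105, 97 and 114 counts at MII to 29, 60 and 35 at L1C and had 64, 48 and 108 at L2C. Hist4h4 fell from 101, 149 and 98 counts to 54, 64 and 41, by 1.21 on the log2 scale (edgeR, BH-adjusted p = 0.002), and had 54, 34 and 106 at L2C. Hist1h4h fell by 1.71 on the log2 scale in the first step, from 33, 46 and 45 counts to 6, 27 and 7, and had 36, 40 and 71 at L2C. Hist2h4 had 24, 40 and 23 counts in MII, 21, 51 and 44 in L1C and 24, 14 and 42 in L2C, and Hist1h4a had 9 to 48 counts in every input. No H4 gene was called higher at L1C than at MII.

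Head-to-head genes were set side by side. In 6 of the 13 pairs both genes were tested in the inputs. The log2 changes had the same sign in 6 pairs from MII to L1C, in 5 from L1C to L2C and in 5 from MII to L2C. Both genes were called in 1, 4 and 4 of these pairs, with the same sign in 1, 3 and 4.

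IP against input showed the histone RNAs on both sides of the library average, with the ratio of IP to input class sums above 1 for H1, H2A and H3 at each stage and for H4 below 1 at MII and L2C. At L2C some of these directions turned with the scaling, H4 to 1.04 by library totals alone and H3 to 0.971 in TPM. For H2B the ratio lay on either side of 1 at L2C and, in TPM, at 0.939 at MII. The values are log2 IP/input from a fit of all 18 libraries. They are relative to all RNA of a library, and scaling by library size in place of TMM raised the median of all genes by 0.20, 0.30 and 0.25 at MII, L1C and L2C. The filter kept 42 histone genes: 5 for H1, 10 for H2A, 12 for H2B, 7 for H3 and 8 for H4. At MII 9 of the 42 were called higher in IP by edgeR where 17.7% of all 21950 genes tested were, and 2 lower where 21% were. At L1C 15 were higher and 0 lower, with 15.8% and 18.2% as background, and the count of 0 was 1 at an unadjusted p under 0.05 and 0 by DESeq2. At L2C 10 were higher and 3 lower, where 22.0% of all genes were higher and 22.0% lower. The median log2 IP/input over the histone genes was 0.33, 0.89 and 0.24, against 0.00, 0.07 and 0.09 over all genes.

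As ratios of class sums in CPM, IP over input at the 3 stages was 1.40, 2.39 and 4.32 for H1, 1.57, 2.09 and 1.23 for H3, and 1.89, 2.71 and 1.24 for H2A. It was 1.17, 1.20 and 0.937 for H2B, and 0.516, 1.09 and 0.872 for H4. The H1 ratio at L2C rests on Hist1h1b, without which it was 2.12. Of the genes that passed the filter, 2 H4 genes were lower in IP at MII and 2 at L2C, 1 H2B gene was lower at L2C, and no H1, H2A or H3 gene was called lower at any stage. With no filter 6 in place of 3 genes were lower at L2C and 1 in place of 0 at L1C. Among the H2A genes too low for the filter, Hist1h2af had 0 counts in L2C IP against 18 in input (ratio 0, counting interval to 0.216), and Hist2h2aa2 0 in L1C IP against 62 in input, all of them in 1 library. Some genes passed the filter through their IP libraries alone, such as Hist1h1e, with at most 3 counts in any input, so counts of genes called and medians over the 42 genes are a description. The L1C values lean on 1 library. L1C IP replicate 3 held 505 CPM of histone RNA, while replicates 1 and 2 held 216 and 211. Without it 9 histone genes in place of 15 were higher in IP at L1C, and the class ratios there turned to 0.906 for H2B and 0.755 for H4 and went to 1.29 for H3, 1.70 for H1 and 1.91 for H2A. H4 at L1C was also below 1 without L1C input replicate 1 (0.930), and H2B at L2C above 1 without L2C input replicate 3 (1.03) or L2C IP replicate 3 (1.00). At L2C the count of 10 fell to 4 without L2C input replicate 2, and to 6 without input replicate 1, input replicate 3, IP replicate 2 or IP replicate 3.

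**Figure D4:**
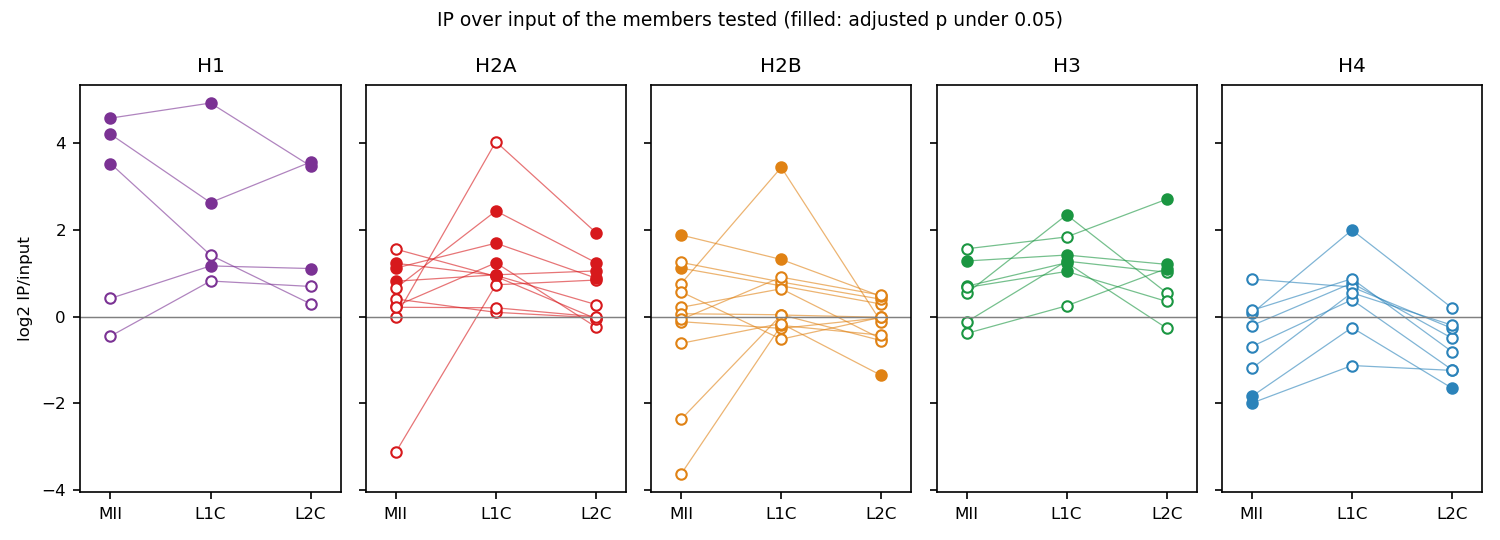
Log2 IP/input at MII, L1C and L2C for the histone genes that passed the filter, grouped by class, with lines joining the values of a gene. Filled points have an adjusted p under 0.05, and the line at 0 is the library average after TMM scaling. The highest points are H1 genes with few input counts, Hist1h1b, Hist1h1d and Hist1h1e, while Hist1h1a is at 0.42 and Hist1h1c at -0.45 at MII, and H4 genes reach below 0 at MII and L2C.

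Of the linker histone genes, Hist1h1b was called higher in IP at each stage. Hist1h1e was called as well, but it passed the filter through its IP libraries, so its values are a description. Hist1h1b had 9, 5 and 10 counts in MII IP against 0, 0 and 1 in input, 46, 53 and 148 at L1C against 7, 9 and 8, and 631, 220 and 361 at L2C against 28, 12 and 67. Every IP library exceeded every input of its stage, and log2 IP/input was 2.63 ± 0.44 at L1C and 3.56 ± 0.37 at L2C (edgeR, BH-adjusted p = 0.00011 and 5.1e-07). At MII the ratio of the groups was 22.9 with a counting interval of 3.73 to 942. Hist1h1e had 53, 20 and 33 counts in MII IP, 24, 21 and 68 in L1C IP and 7, 1 and 9 in L2C IP, against at most 3 in any input. The L1C ratio was 36.3 with a counting interval of 9.83 to 304, and the annotated span of the gene overlaps that of Hist1h2be, so reads may be shared. Hist1h1a had 819, 694 and 830 counts in MII IP, 646, 827 and 2314 at L1C and 250, 147 and 163 at L2C. Its log2 IP/input was 0.42 at MII, with no call, and 1.17 and 1.11 at L1C and L2C, both called. The L1C call of Hist1h1a was lost without L1C IP replicate 3 (0.68), and its L2C call without L2C input replicate 1 or 2 or L2C IP replicate 2 (0.74 to 1.01). Hist1h1d was called at MII only, with 15, 6 and 17 counts in IP against 3, 0 and 0 and a ratio of 12.1 (counting interval 3.83 to 61.2), and Hist1h1c at no stage.

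Among core histones, Hist1h2aa and Hist2h2aa1 were higher in IP at all 3 stages. Log2 IP/input was 0.82, 0.96 and 1.05 for Hist1h2aa, and 1.12, 1.69 and 0.89 for Hist2h2aa1, whose IP libraries held 907, 874 and 794 counts in MII, 1785, 1859 and 6380 in L1C and 1204, 234 and 535 in L2C. Hist1h2ap was higher in IP at MII (log2 1.23) and L1C (0.95) but was not called at L2C, where IP libraries had 384, 328 and 268 CPM and inputs 242, 241 and 325. These L2C libraries overlapped, and log2 IP/input was 0.28 ± 0.23 for this gene, to which most histone RNA per length was assigned at that stage. Of H3 genes, Hist1h3f was called at all 3 stages (1.28, 1.42 and 1.21), with 70, 51 and 52 IP counts in MII, 71, 143 and 356 in L1C and 106, 39 and 37 in L2C. Hist2h3b and Hist2h3c2 were called at L1C alone, at log2 1.24 and 1.04, and in both the IP and input libraries overlapped. Without L1C IP replicate 3 their values were 0.48 and 0.26, without input replicate 1 0.96 and 0.79 and without input replicate 3 1.15 and 1.09, each with no call. Of the calls on H2A genes, those of Hist1h2aa at L2C were lost without L2C input replicate 2 or 3 or L2C IP replicate 2 or 3 (0.96 to 1.06). Those of Hist2h2aa1 were lost at MII without MII input replicate 1 (0.94) and at L2C without L2C input replicate 1 or 2 or IP replicate 1 (0.67 to 0.89). Those of Hist1h2ap were lost at MII without MII input replicate 1 or 3 or IP replicate 1 or 2 (0.99 to 1.27), and at L1C without L1C input replicate 1 or 3 or IP replicate 3 (0.49 to 0.88).

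The H4 gene Hist4h4 and the H2B gene Hist3h2ba were lower in IP. Hist4h4 had 41, 29 and 32 counts in MII IP against 101, 149 and 98 in input, and 36, 7 and 21 in L2C IP against 54, 34 and 106. Scaled to CPM, its IP libraries were at 2.34, 1.5 and 1.97 at MII below inputs at 5.32, 8.93 and 6.57, with log2 IP/input of -1.84 ± 0.33 (edgeR, BH-adjusted p = 0.00018), and -1.65 ± 0.36 at L2C (BH-adjusted p = 0.001). At L1C it was at -0.25 with no call. Hist2h4 was lower at MII (log2 -1.99 ± 0.53, edgeR, BH-adjusted p = 0.0055), with 9, 10 and 4 IP counts against 24, 40 and 23. Hist1h4c was lower at L2C (log2 -1.23), a call lost without any single L2C input or IP replicate 3 (-0.86 to -1.30), and Hist3h2ba at L2C (log2 -1.36, BH-adjusted p = 0.01), with 39, 6 and 16 IP counts.

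Whether IP/input itself changed between stages was tested as an interaction of stage and kind of library. Of 42 histone genes, 1 rose and 0 fell from MII to L1C by edgeR, where 3.13% and 4.21% of all genes did. From L1C to L2C 0 rose and 2 fell (background 5.0% and 4.47%). Between MII and L2C 1 gene rose and 0 fell (background 11.1% and 9.21%). At an unadjusted p under 0.05 the 3 counts of 0 were 0, 0 and 1, and DESeq2 gave 0, 0 and 1. With no filter 7 fell from L1C to L2C and 3 between MII and L2C, and a fit of the compared stages alone gave 0 that rose and 3 that fell between MII and L2C. The risers were Hist4h4 (log2 1.59 ± 0.46, BH-adjusted p = 0.042) from MII to L1C and Hist2h3c1 (1.5 ± 0.48, BH-adjusted p = 0.034) from MII to L2C. Those that fell from L1C to L2C were Hist1h4i (-1.80 ± 0.47, BH-adjusted p = 0.022) and Hist1h2ac (-1.48 ± 0.44, BH-adjusted p = 0.041). Each of these calls was lost when some single libraries were left out, and the count from MII to L1C ran from 0 to 3, from L1C to L2C from 0 to 4 and from MII to L2C from 0 to 2. With replicate number as a block in the fit, 0 rose from MII to L1C, 1 fell from L1C to L2C and 0 rose between MII and L2C.

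By part of the rule of the study for an m6A-tagged RNA, log2 IP/input above 0 with an unadjusted p under 0.05 and more than 1 count in each input, 7 of 32 histone genes that met the count condition were tagged at MII, 15 of 33 at L1C and 8 of 37 at L2C. The study took these values from DESeq2, and here they came from the edgeR fit. Further conditions of the rule, on genes without a p and on calls in single replicates, were not applied. The shares over all genes were 24.8%, 21.3% and 25.7%. Tagged genes at MII were 3 H2A, 3 H2B and 1 H3 gene, and at L1C 5 H2A, 4 H3, 3 H1, 2 H2B and 1 H4 gene. The L1C count was 9 without L1C IP replicate 3. A property of the sequence set H3 apart: the letters GGACT, a common form of the m6A motif, occurred in the last 300 coding bases of 12 of 12 H3 genes and in none of the H1, H2A, H2B or H4 genes, against 28.4% of all 21223 protein-coding genes. An IP of whole RNA does not show at which base an m6A lies.

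In the knockdown experiment, Ythdc1 itself was at 202 and 208 CPM in KD and at 416, 422 and 380 in NC, and at 523, 541 and 519 against 1080, 1098 and 994 CPM in the merged table, which holds fewer genes. Summed histone RNA was lower in both KD libraries for H1, H2B and H4, while KD and NC libraries overlapped for H2A and H3. Class sums were 8.97 and 14.8 CPM in KD and 20.6, 21.2 and 29.7 in NC for H1, a ratio of means of 0.498. H4 summed to 27.7 and 44.3 CPM against 68.9, 73.8 and 85.4 (ratio 0.474), and H2B to 11.5 and 13.9 against 25.8, 16.4 and 26.6 (ratio 0.554). In these 3 classes both KD libraries lay below all NC libraries. H2A summed to 89.0 and 71.9 CPM against 71.0, 56.5 and 100 (ratio 1.06) and H3 to 4.07 and 6.31 against 6.01, 4.75 and 7.42 (ratio 0.857), and in both the groups overlapped. All 67 genes summed to 141 and 151 CPM in KD and 192, 173 and 249 in NC.

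Of 24 histone genes tested in the libraries that span the annotation, 13 fell and 1 rose in KD by edgeR with BH adjustment, where 36.4% of all 17074 genes fell and 30.5% rose. The median log2 change of the 24 was -0.96, and that of all genes -0.09. The filter shapes this split, and with no filter 18 fell and 8 rose. Of the 13 that fell, Hist1h1c, Hist1h2ba and Hist4h4 had under 10 counts in both KD libraries and passed through NC, so the count and the median are a description. By class 3 of 3 H1, 5 of 7 H2B, 4 of 6 H4, 1 of 2 H3 and 0 of 6 H2A genes fell, the last also at an unadjusted p under 0.05. The merged table allowed a test of 2 histone genes, of which 1 fell and 0 rose by edgeR, with 37.4% and 33.5% of 7433 genes as background, and DESeq2, which filters in its own way, called 2 lower and 2 higher there and 16 lower and 6 higher in the first fit. The count that rose was 2 without KD replicate 2 and 3 without NC replicate 3 in the first fit, and 1 in the merged table without KD replicate 1 or any single NC library. The stage markers moved with these changes: 8 of 8 genes of the 2-cell list were lower in KD, with summed levels of 333 and 295 CPM against 1063, 1045 and 1022. Of the oocyte list 6 of 8 were lower and 1 higher (816 and 740 CPM against 1701, 1663 and 1560). Blood markers summed to 9.43 and 14.0 CPM in KD and 26.7, 20.9 and 28.3 in NC, with 1 of 2 tested genes lower, and cumulus markers to 10.1 and 8.56 against 7.65, 6.35 and 9.31, with 0 of 1 called by edgeR. The part of embryo stage or of other cells in the histone result was not tested.

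**Figure D5:**
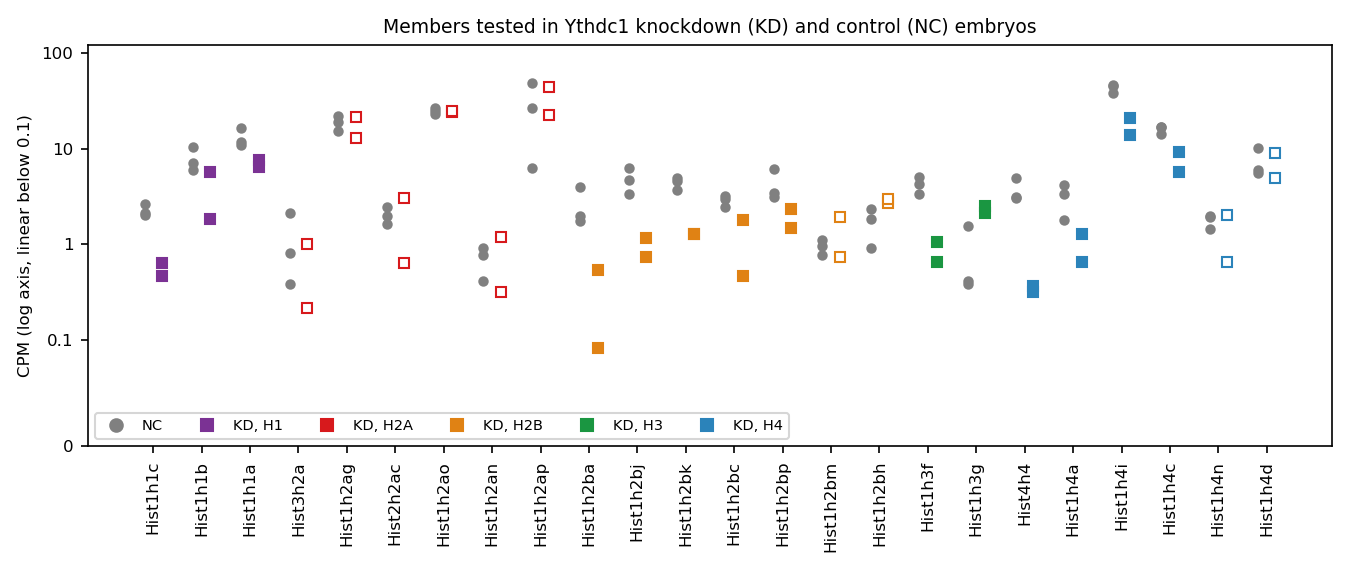
Level of each tested histone gene in the KD and NC libraries, in CPM on an axis that is logarithmic above 0.1 and linear below it. Grey circles are NC libraries, squares are KD libraries, and filled squares mark genes with an adjusted p under 0.05. For 13 genes KD lies below NC, and for Hist1h3g above.

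Genes that fell in KD included Hist1h4i, which had risen at L2C, and Hist1h1a and Hist1h4c, which had been highest of their classes per length in oocytes. Other genes of both kinds did not fall: Hist1h2ap and Hist1h2ag were not called, Hist1h3g rose, and the oocyte gene Hist1h2aa, too low to test, had 13 and 7 counts in KD against 8, 5 and 5. Hist1h4i had 150 and 197 counts in KD and 559, 589 and 422 in NC, a log2 change of -1.31 ± 0.16 (edgeR, BH-adjusted p = 2.9e-06). Hist4h4 had 4 and 3 counts against 45, 41 and 45, a log2 change of -3.36. In the merged table, with KD replicate 3 at 9 counts, its log2 change was -2.94, and this library too lay below all NC libraries. Hist4h4 had under 10 counts in every KD library and passed the filter through NC, so its changes are a description. Hist1h4c had 61 and 86 counts against 246, 185 and 152 (log2 -1.11, edgeR, BH-adjusted p = 0.00017), and Hist1h4a 7 and 12 against 26, 44 and 38 (log2 -1.67, with no call without KD replicate 1 at -1.23). Among H1 genes, Hist1h1a had 70 and 72 counts against 174, 142 and 149 (log2 -0.87 ± 0.21, edgeR, BH-adjusted p = 0.0018), and Hist1h1b 20 and 53 against 88, 92 and 93 (log2 -1.05 ± 0.36, BH-adjusted p = 0.017). Hist1h1c had 5 and 6 against 30, 28 and 24 (log2 -2.03) and passed the filter through NC, so its change is a description. The call of Hist1h1b was lost without KD replicate 1 (log2 -0.42) or NC replicate 3 (-0.83). The H1 gene Hist1h1d, too low to test, had 1 and 0 counts against 9, 15 and 2, a ratio of 0.0701 with a counting interval of 0.00171 to 0.427.

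Of the 7 H2B genes tested 5 fell. Hist1h2bj had 8 and 11 counts in KD against 91, 44 and 42 in NC (log2 -2.32, edgeR, BH-adjusted p = 0.00012), and Hist1h2bk 14 and 12 against 68, 48 and 45 (log2 -1.77, BH-adjusted p = 0.00031). Hist1h2ba had 1 and 5 against 29, 23 and 36 (log2 -3.01) and passed the filter through NC, so its change is a description. Hist1h2bp had 16 and 22 against 51, 41 and 56 counts (log2 -1.13, BH-adjusted p = 0.016). In each of these genes the groups did not overlap. The fifth, Hist1h2bc, had 5 and 17 counts against 47, 32 and 27 (log2 -1.37). The other two were not called: Hist1h2bh had 29 and 28 counts against 27, 12 and 21 (log2 0.77 ± 0.40, with KD above all NC libraries in CPM), and Hist1h2bm 8 and 18 against 14, 10 and 10 (log2 0.49 ± 0.52). For the H2A genes with most counts the groups overlapped. Hist1h2ap had 481 and 210 counts in KD against 387, 83 and 434 in NC, and Hist1h2ao 264 and 229 against 362, 304 and 238. Reads of these copies that match both were not counted, and their summed counts were 745 and 439 against 749, 387 and 672, with groups that overlap. Hist1h2ag had 141 and 200 counts against 224, 286 and 170, also overlapping. Whether the change of H2A genes differs from that of the other classes was not tested.

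H3 genes went both ways in KD. Hist1h3f had 7 and 10 counts against 74, 44 and 39, a log2 change of -2.31 (edgeR, BH-adjusted p = 0.0001). Hist1h3g was the 1 gene that rose among those that passed the filter, against 8 with no filter, with 27 and 20 counts against 6, 5 and 14 and a log2 change of 1.69 ± 0.54 (BH-adjusted p = 0.012), and this call was lost without KD replicate 1 (log2 1.56). Some genes that did not pass the filter had more counts in KD. Hist1h2bl had 20 and 5 against 0 in all 3 NC libraries, at least 15.2-fold higher than a floor of 3 counts over the group. Hist1h3a had 7 and 18 against 0, 0 and 1, a ratio of 45.5 with a counting interval of 7.46 to 1870. Hist2h4 had 9, 11 and 13 counts against 1, 1 and 0 in the merged table, Hist2h2be 12, 6 and 11 against 1, 0 and 0, and Hist1h1e 1 and 7 against 0 in all 3, at least 4.86-fold higher over that floor. Others had fewer counts in KD. Hist2h3c2 had 0 in every KD library and 4, 7 and 5 counts in NC, and Hist1h2ai 0 in both KD libraries against 9, 6 and 5. Hist1h4h had 1 count in KD and 32 in NC, a ratio of 0.0569 with a counting interval of 0.0014 to 0.341, and Hist1h2bq 1 and 47, a ratio of 0.0388 with an interval of 0.000961 to 0.227, where 42 of the 47 were in 1 NC library. The abundant Hist2 genes Hist2h2aa1, Hist2h3b and Hist2h3c1 were at 0 in all KD and NC libraries, so their RNA could not be compared. Every 31-base word of these genes is also in another annotated gene. Of the head-to-head pairs 3 had both genes tested in KD, with the same sign in 1.

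The genes that make and process histone mRNA were read beside the histone genes, as a list of 19. All 19 were tested in the inputs: 4 rose and 9 fell from MII to L1C, 9 rose and 7 fell from L1C to L2C, and 6 rose and 9 fell from MII to L2C. Over all genes 31.9% rose and 24.3% fell in the first comparison, 44.1% and 38.8% in the second, where the shares of the list were near these, and 47.5% and 37.1% in the third. Slbp, the stem-loop binding protein gene, was at 813, 994 and 1015 TPM at MII and 940, 828 and 723 at L1C, and then at 76.8, 53.3 and 58.5 at L2C, a log2 change of -3.29 ± 0.16 called by edgeR. The transcription factor genes Npat, which acts at histone clusters, and Hinfp, which acts at H4 genes, rose in that step by log2 2.47 and 2.95. Ncbp1 of the cap-binding complex and Coil, which encodes coilin of Cajal bodies, rose by log2 6.14 and 4.90. Of the U7 particle, Lsm10 rose at both steps (log2 1.36 and 1.02), while Zfp473, whose product binds the particle, fell by 1.79 on the log2 scale from L1C to L2C. Pou2f1 fell by 1.53 and then by 0.90. In KD 9 of the 19 were higher and 5 lower, among them Npat (log2 0.48), Eri1 of histone mRNA decay (0.77), Lsm11 (1.11) and Casp8ap2 (0.37) higher and Pou2f1 (-0.74) lower. Slbp was at log2 0.03 in KD with no call. Against input, 6, 3 and 4 of the 19 were higher in IP at MII, L1C and L2C, and 9, 8 and 10 lower. The background was 30.5% higher and 36.4% lower in KD, and 17.7%, 15.8% and 22.0% higher and 21%, 18.2% and 22.0% lower in IP.

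Genes for histone variants that are made outside DNA replication and carry poly(A) tails, a list of 12, gave a reference on the same libraries. Of the 11 tested in the inputs, 2 rose and 5 fell from MII to L1C, 5 rose and 4 fell from L1C to L2C, and 6 rose and 4 fell from MII to L2C. H1foo, the oocyte linker histone gene, had mean levels of 17273, 1957 and 94.9 TPM at the 3 stages and fell by 2.87 and 3.92 on the log2 scale, so linker histone RNA of both kinds was lower at L2C than at MII. H2afz went from 50.9 and 40 to 629 TPM and rose by log2 4.41 in the last step, while H3f3b was at 1540, 1497 and 693 TPM. In KD 7 of 10 tested variants were higher and 3 lower, H2afj by log2 1.16 and H2afx by -0.94 among them. In IP against input 3, 3 and 5 of 12 were higher and 2, 2 and 3 lower. The shares of all genes are those given for the list of 19, and with so few genes nothing particular to these variants can be read from the counts.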

How the data were processed

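SLIM-seq counts and TPM were deposited by the authors as kallisto output, and the counts are estimated counts, not scaled to library size. The kallisto targets were whole gene spans, introns included, and the deposited TPM values are scaled by its length. KD and NC reads were trimmed by the authors (Trimmomatic) and aligned to GRCm38 (Hisat2), and read pairs on exons were counted with featureCounts 2.0.1. These deposited raw counts leave out reads with several matches and ignore strand, so reads of a gene and its antisense partner cannot be told apart. The merged KD table ends on chromosome 7, as does the file of KD replicate 3. No columns of the authors' own comparisons were used, and LiRibo-seq and proteomics were not used here.

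Estimated counts were rounded and tested with edgeR 4.0.16 in R 4.3.3 (quasi-likelihood test, TMM scaling, filterByExpr, BH adjustment over all genes tested, called at an adjusted p under 0.05), in 1 fit of the 9 inputs, 1 of all 18 SLIM-seq libraries and 1 for each KD source. DESeq2 1.42.0, library-size scaling, no filter, the replicate block, the compared stages alone and each library left out were the alternatives. CPM used TMM-scaled library sizes. A group at 0 was set to a floor of 3 counts over the group, and ratios of low counts have exact 95% intervals. GENCODE M21 gave positions, and RefSeq GRCm38.p6 gave promoters. Tables and intervals came from pandas 2.3.3, numpy 2.4.6 and scipy 1.17.1, and plots from matplotlib 3.10.9, under Python 3.11.15. Fits were tested on simulated data. Named genes were all H1, Hist2h, Hist3h and Hist4h4 genes, the 4 of each other class highest in mean TPM, and the 2 with the smallest p in each direction of each comparison. Other genes named in a sentence on values were chosen after their values were seen. The genes and lists were chosen with earlier results of these data known.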

Additional observations from a re-analysis of the deposited data

Results flagged for a closer look

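In 4 histone genes IP/input differed between stages by the interaction test of edgeR. From MII to L1C log2 IP/input of Hist4h4 rose by 1.59. From L1C to L2C it fell by 1.48 for Hist1h2ac, which had 55, 67 and 124 IP counts against 22, 25 and 18 in input at L1C and 40, 9 and 21 against 16, 17 and 46 at L2C, and fell by 1.80 for Hist1h4i. From MII to L2C it rose by 1.5 for Hist2h3c1, which had 52, 64 and 56 IP counts against 86, 48 and 80 in input at MII and 140, 52 and 132 against 74, 36 and 31 at L2C. The call was lost in 10 of 17 alternatives for Hist4h4, 11 of 17 for Hist1h2ac, 10 of 17 for Hist2h3c1 and 3 of 17 for Hist1h4i.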

How the results depend on the processing

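Of 96 calls on named genes, 61 were kept in every alternative, and of 1051 values recomputed 927 stayed called, 124 lost the call and 0 changed sign. Counts that moved by more than 1.5 times follow, with the cause not tested beyond the fewer or more genes that a filter admits. With no filter on low counts, 7 in place of 4 genes rose from MII to L1C and 22 in place of 13 from MII to L2C, 1 in place of 0 was lower in IP at L1C and 6 in place of 3 at L2C. With no filter, 7 in place of 2 fell in IP/input from L1C to L2C and 3 in place of 0 from MII to L2C, and in KD 8 in place of 1 rose in the files, 2 in place of 0 in the merged table, where 2 in place of 1 fell. Fitting only the stages compared gave 2 genes higher at L1C than MII, 4 in place of 2 lower in IP at MII, and 0 higher, 0 higher and 3 lower in IP/input for L1C against MII and L2C against MII. DESeq2 gave 4 lower in IP/input from L1C to L2C and 1 lower from MII to L2C, and in KD 6 higher in the files and 2 higher and 2 lower in the merged table. Library-size scaling gave 2 higher in IP/input from MII to L1C. Deviations of same-numbered libraries had correlations of -0.130 to 0.107, and those of unlike number in L1C ran from -0.215 to 0.248. With 3 libraries per group this cannot decide whether the numbers pair the samples. The study states that input and IP used RNA of the same batches. The replicate block gave 1 lower in IP at L1C, 0 higher in IP/input from MII to L1C, 1 lower from L1C to L2C, 0 higher from MII to L2C and 2 higher in the KD files.

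With each library left out, 2 to 6 genes rose and 8 to 12 fell from MII to L1C, 9 to 16 and 8 to 11 from L1C to L2C, and 9 to 14 and 11 to 15 from MII to L2C. In IP 7 to 9 were higher and 2 to 3 lower at MII, 9 to 16 and 0 to 1 at L1C, and 4 to 7 and 2 to 4 at L2C. For IP/input 0 to 3 rose and 0 to 0 fell from MII to L1C, 0 to 0 and 0 to 4 from L1C to L2C, and 0 to 2 and 0 to 1 from MII to L2C. Tagged genes were 6 to 8, 9 to 20 and 7 to 9 at MII, L1C and L2C. In KD 1 to 3 rose and 11 to 14 fell in the files, and 0 to 1 and 1 to 1 in the merged table. The interaction count from MII to L1C was 0 without MII input replicate 2 or 3, L1C input replicate 3, MII IP replicate 1 or 2 or L1C IP replicate 3, and 3 without L1C input replicate 2. That from L1C to L2C (lower) was 0 without L1C input replicate 3 or L1C IP replicate 1, 1 without L1C input replicate 1, L2C input replicate 2, L1C IP replicate 3 or any L2C IP library, and 4 without L1C IP replicate 2. Low counts limit most genes: 32 of 67 did not pass the filter in the inputs, and levels near the floor of 3 counts allow no statement on direction.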
